A study of Mus musculus with 35 samples.

Results

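Epithelial cells hold together through adherens junctions, built on E-cadherin, and tight junctions, built on occludin and the claudins, whereas mesenchymal cells lack these contacts and carry an intermediate filament network of vimentin. In the epithelial-to-mesenchymal transition the zinc-finger factors of the Snail family and the basic helix-loop-helix factors of the Twist family repress E-cadherin and other junction genes. Reprogramming of fibroblasts runs the switch the other way, since pluripotent cells in culture grow as compact colonies joined by E-cadherin. The genes described here are 9 genes of this switch: the cadherins Cdh1 and Cdh2, the tight junction genes Ocln and Cldn6, the transcription factors Snai1, Snai2, Twist1 and Twist2, and the filament gene Vim. They were taken by the gene name in the array design, which gave 9 of 27962 genes with 13 of 41174 gene probes, and each gene was followed by its brightest probe.

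RNA of 35 samples was hybridized to mouse whole-genome arrays in 1 colour. The 30 iPS clones came from 6-week-old Nanog-reporter mice and made 6 groups of 5, induced by retroviruses for 4 factors (Oct3/4, Sox2, Klf4 and c-Myc; 4F) or for 3 of them without c-Myc (3F). Their sources were PαS cells (bone marrow mesenchymal stem cells sorted as CD45- Ter119- PDGFRα+ Sca-1+), OP cells (osteo-progenitors sorted as CD45- Ter119- PDGFRα- Sca-1-) and TTFs, with 1 array for each source. ES cells had 2 arrays, of the lines EB-3 and RF8, and the study's methods state that iPS clones were kept on feeder layers of SNL cells, a fibroblast line. Each clone is 1 array, and p values measure the spread between these arrays. All levels below are log2 intensities with the 75th percentile of each array set to 0, so that a level describes 1 probe across arrays and is not compared between genes.

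The clones were scanned in 1 session on 8 slides, EB-3 and the 3 sources in another session on 1 slide, and RF8 in one more, and so the session and the step from clones to sources or ES cells cannot be told apart. The share of probes called well above background was 56.6% to 65.7% in clones and 63.0% to 71.2% in the other samples. In 4 clones, 4F-OP-iPS #1, #2 and #3 and 4F-TTF-iPS #1, Sox2 lay between -8.21 and -2.04 and Nanog between -8.24 and -3.30, while the other 26 clones had Sox2 between 0.21 and 3.23 and Nanog between -0.89 and 3.68. These clones were seen to stand apart in the data, and results are given without them where they matter. In the source cells all 12 fibroblast markers examined were well above background, and neither Sox2 nor Nanog was. The TTF array also held blood cell markers, with all 8 above background and a summed level, relative to the 75th percentile, of 396 against 0.119 in PαS and 0.172 in OP cells. Fewer cells of a type and less RNA per cell cannot be told apart in such bulk samples.

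The probes for the paired factors are shown because the Snail genes, and likewise the Twist genes, encode similar proteins. The first 30 of the 60 bases of each probe read, 5′ to 3′, as follows, with the probe of Cdh1 first.
Cdh1: acattctaacgggaaaaaggagacaagacc
Snai1: gtttcacagcagtttaactgtctcagaagg
Snai2: gtgaggtacggttaatagccacgcctatat
Twist1: atggtaacaatcagaggaattttaacacct
Twist2: ttattgagatattttaccagctaagtgact
The longest run of bases common to the Snai1 and Snai2 probes was 7, and that of the Twist1 and Twist2 probes was 6. In the design's annotation on mm7 the Cdh1 probe lay at chr8:105268557-105268616, Snai1 at chr2:167283227-167283286, Snai2 at chr16:14250104-14250163, Twist1 at chr12:31805579-31805638 and Twist2 at chr1:91755751-91755809, all on the plus strand. Vim lay at chr2:13521763-13521822 and Cldn6 at chr17:21861935-21861994 on the plus strand, and Ocln at chr13:97585859-97585918 on the minus strand. Whether these positions are coding or untranslated was not analysed here.

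**Figure D1:**
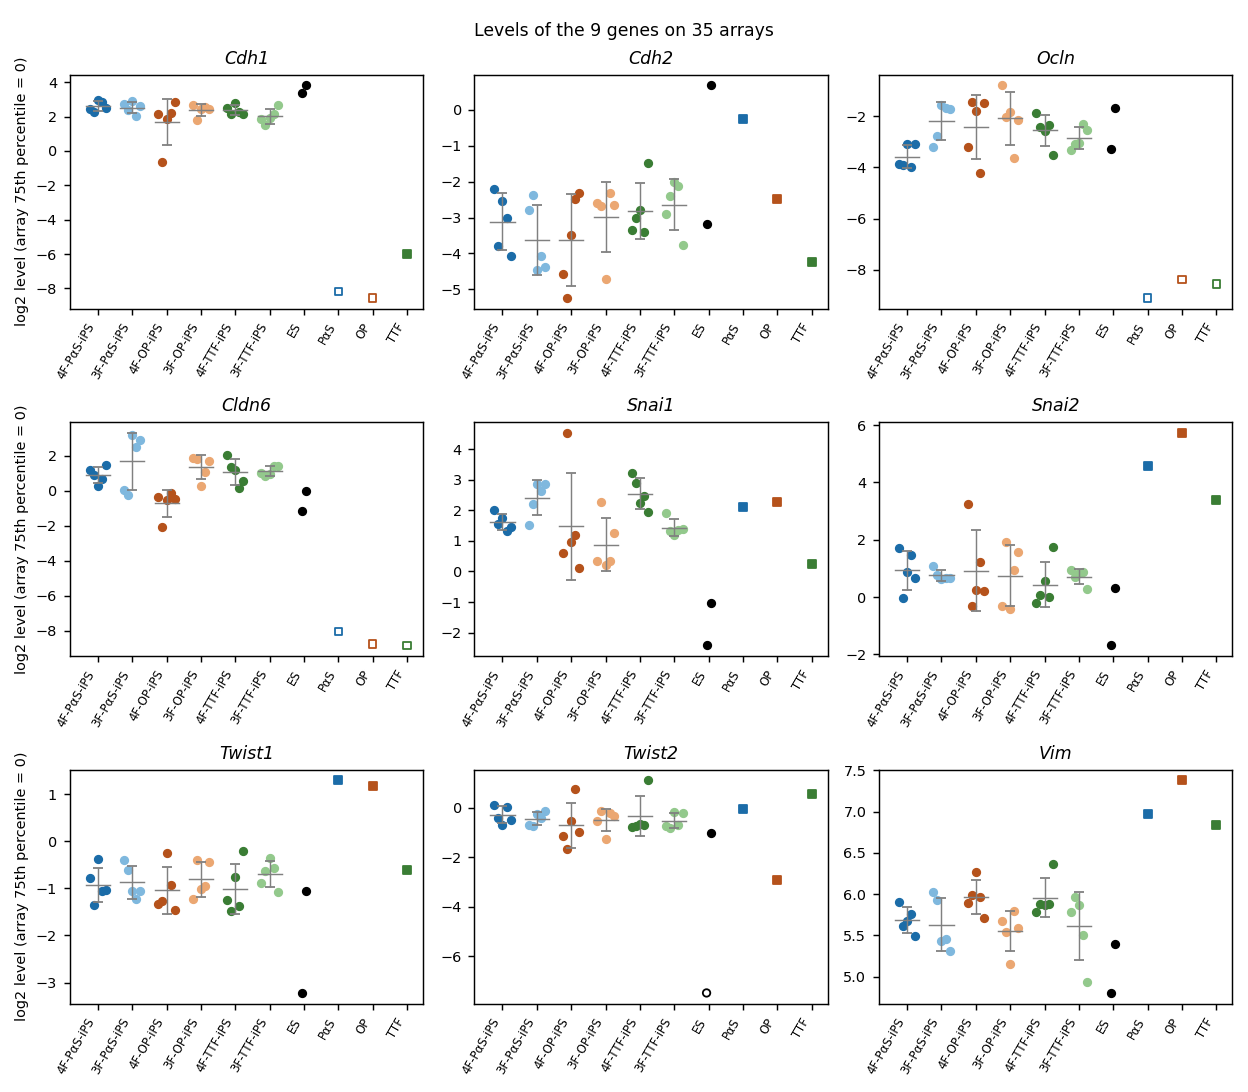
Each panel plots the log2 level of 1 gene (75th percentile of the array = 0) on all 35 arrays. Points are arrays, open symbols are arrays on which the probe was not well above background, squares are source cells, and grey lines are the mean ± SD of 5 clones. Cdh1, Ocln and Cldn6 separate the 30 clones from the 3 sources, and Snai1 separates the 30 clones from both ES arrays.

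The first comparison asks how the switch genes of the source cells differed from those of the clones made from them. The junction genes Cdh1, Ocln and Cldn6 were far lower in the sources, the factors Snai2 and Twist1 and the filament gene Vim were higher, and Cdh2, Snai1 and Twist2 passed in neither direction. In limma's fit of all 35 arrays 3 of the 9 genes were lower and 3 higher at an adjusted p under 0.05 and at least 2-fold, where 23.7% of the 28300 probes tested were lower and 15.4% higher, 39.1% in all. For 5 of the 9, namely Cdh1, Ocln, Cldn6, Snai2 and Vim, no source array overlapped any clone, which held for 20.7% of the probes tested. The share of members called is thus to be read against a large share of all probes. Cdh1, Ocln and Cldn6 entered this test through clones or ES cells only. Where a source was not above background, limma took its background reading as a level, also in the gene lists below. Such a p value belongs to that reading and not to the bound printed beside it.

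Cdh1, which encodes E-cadherin, had a level of -5.98 in TTFs, and was not well above background in PαS cells (measured at -8.19) and OP cells (-8.55). In the 30 clones it ran from -0.66 to 2.95 with a median of 2.39. No source reached the lowest clone, and the clones were at least 446-fold above the 3 sources with PαS and OP cells at their floors (limma, adjusted p = 1.25e-17). PαS-iPS clones were at least 846-fold above PαS cells and OP-iPS clones at least 364-fold above OP cells, bounds set by the dimmest signal called above background on the source's array, while TTF-iPS clones were 289-fold above TTFs.

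Ocln, the gene of occludin, was not well above background in any source, with measured levels of -9.09 in PαS cells, -8.36 in OP cells and -8.55 in TTFs. The clones ran from -4.23 to -0.80 with a median of -2.57. They were at least 17.6-fold above the sources with these at their floors (limma on the background readings, adjusted p = 1.20e-11). Cldn6, a claudin of early embryonic epithelia, was likewise not well above background in PαS cells (-8.06), OP cells (-8.77) or TTFs (-8.84). The clones lay between -2.06 and 3.17 with a median of 0.97. The clones of each source exceeded PαS cells at least 347-fold, OP cells at least 110-fold and TTFs at least 209-fold (limma over the 3 sources on their background readings, adjusted p = 2.07e-15). For both genes the lowest clone stood above every source.

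Snai2, the Snail family gene known as Slug, had levels of 4.57 in PαS cells, 5.74 in OP cells and 3.37 in TTFs. The clones ran from -0.41 to 3.26 with a median of 0.68, and even the highest, 4F-OP-iPS #1, lay below the 3 sources. Sources exceeded clones by 3.81 (SE 0.53), 14.0-fold (limma, adjusted p = 6.33e-07). Its relative Snai1, the gene of Snail, showed no such separation. PαS cells had 2.10, OP cells 2.27 and TTFs 0.23, all within the range of the clones, 0.10 to 4.53, though the TTF array lay below its own TTF-iPS clones (1.18 to 3.20). The difference was -0.19, with a 95% interval of -1.22 to 0.84 (limma, adjusted p = 0.774).

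Twist1, which drives mesenchymal fate in the embryo, stood at 1.30 in PαS and 1.17 in OP cells, above every clone (-1.48 to -0.20), but at -0.61 in TTFs, inside the range of the clones. The 3 sources together exceeded the clones by 1.51 (SE 0.33, limma, adjusted p = 0.000324), and against TTF-iPS clones alone the TTF array differed by 0.25 (limma, adjusted p = 0.724), in a fit that has 1 array on the source side and takes its spread from the other groups. Twist2 had another order, with 0.55 in TTFs, -0.04 in PαS cells and -2.91 in OP cells. The clones spanned -1.67 to 1.12, so that OP cells lay under all of them and the other sources within, and the difference was -0.34 with a 95% interval of -1.65 to 0.98 (limma, adjusted p = 0.686).

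Vim rose to 6.97 in PαS cells, 7.38 in OP cells and 6.84 in TTFs, above the highest clone at 6.37. The lowest clone stood at 4.94 and the median clone at 5.78, and the difference was 1.33 (SE 0.18), 2.51-fold (limma, adjusted p = 3.62e-07). The filament gene therefore had the smallest difference of the 6 called genes, on a probe that was well above background on all 35 arrays. Cdh2, which encodes N-cadherin, differed between sources: PαS cells had -0.24, above all clones (-5.24 to -1.48), OP cells had -2.47 within their range and TTFs -4.23, within that range but under all TTF-iPS clones. Over the 3 sources the difference was 0.82 with a 95% interval of -0.52 to 2.15 (limma, adjusted p = 0.308). PαS cells alone against PαS-iPS clones gave 3.13 (SE 1.08, limma, adjusted p = 0.0227), with 1 array on the source side.

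**Figure D2:**
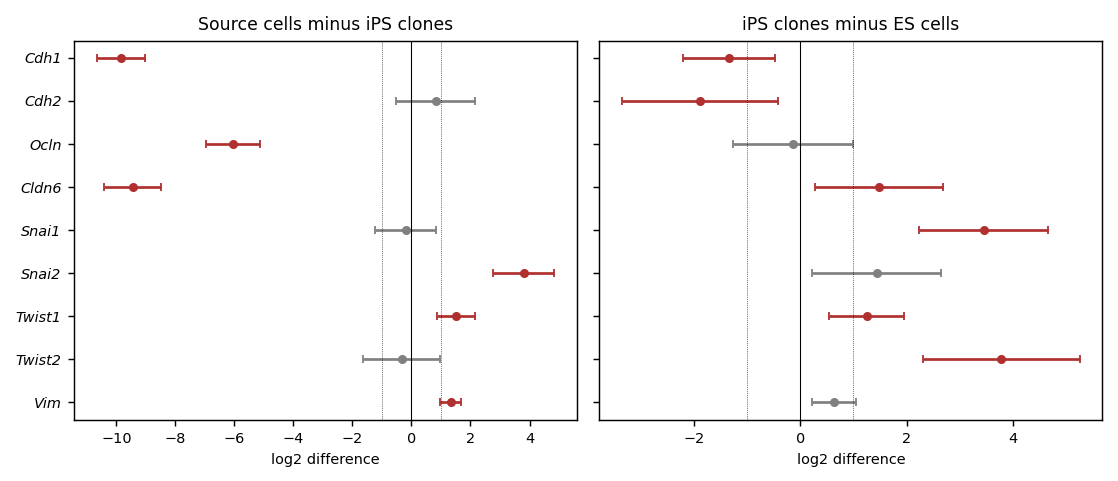
Log2 differences from limma, sources minus clones on the left and clones minus ES cells on the right, with 95% intervals. Red points passed an adjusted p under 0.05 and at least 2-fold, grey points did not, and dotted lines mark 2-fold. On the left Snai2 lies at 3.81 and on the right Snai1 at 3.45, while Cdh1, Ocln and Cldn6 on the left and Twist2 on the right rest on arrays at background, so that their points are no exact differences.

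The EB-3 array shared its slide and session with the sources, and the sources were set against EB-3 within that session, from single arrays and without a test. No clone was scanned in it. There Cdh1 was at least 1494-fold higher in EB-3 than in PαS cells, at least 929-fold higher than in OP cells and 656-fold higher than in TTFs. Cldn6 was at least 39.4-fold and Ocln at least 9.16-fold higher in EB-3 than in each source. Snai2 was higher in the sources by 5.06 to 7.42, Twist1 by 2.61 to 4.52 and Vim by 2.04 to 2.58. Snai1, whose levels in sources and clones overlapped, was higher in the sources than in EB-3 by 2.65 to 4.69. Cdh2 differed from EB-3 by 2.93 in PαS cells, 0.71 in OP cells and -1.05 in TTFs. Twist2 was well above background in each source and not in EB-3. The difference between sources and clones itself was not measured within a session.

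The Snail family binds a hexamer known as an E-box, CAGGTG or CACCTG on the other strand, and the promoters of both tight junction genes that were dark in the sources are shown with it. RefSeq promoters (GRCm38.p6, 250 bases before to 50 after the start) were at hand for 6 of the 9 genes, not for Cdh1, Cdh2 or Snai2. They made 7 windows, 2 of them for Ocln, which overlap and share a hexamer, so that the windows are not independent. The hexamer, read on both strands, occurred in 4 of the 7 windows, those of Ocln, Cldn6 and Snai1, and in 20.2% of all 32851 windows. Capitals mark the hexamer in Cldn6 (chr17:23679115-23679414, plus strand) and in the window of Ocln further along its strand (chr13:100552449-100552748, minus strand).
Cldn6: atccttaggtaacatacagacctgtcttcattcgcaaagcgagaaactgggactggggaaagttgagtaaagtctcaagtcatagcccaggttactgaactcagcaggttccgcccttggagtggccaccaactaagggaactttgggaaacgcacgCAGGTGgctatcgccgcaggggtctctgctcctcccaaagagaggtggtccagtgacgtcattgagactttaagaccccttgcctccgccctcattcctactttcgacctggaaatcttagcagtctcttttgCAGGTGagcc
Ocln: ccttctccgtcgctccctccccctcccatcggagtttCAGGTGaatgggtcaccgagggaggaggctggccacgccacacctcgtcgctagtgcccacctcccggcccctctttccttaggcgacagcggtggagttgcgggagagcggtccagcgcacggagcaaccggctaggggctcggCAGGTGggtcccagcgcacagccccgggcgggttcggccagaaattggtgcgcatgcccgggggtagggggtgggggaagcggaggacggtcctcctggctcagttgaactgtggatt
Each window held the hexamer 2 times. A match is a description of these letters and no evidence of binding.

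Other genes of the switch were read from 4 lists. All 25 epithelial junction and regulator genes were called lower in the sources than in the clones, where 23.7% of all probes tested were. Their median difference was -6.23 against -0.14 over all probes tested. Genes such as Krt8, Epcam and Grhl2 were above background in no source, so that the median rests partly on background readings. The leading genes were the simple-epithelium keratins Krt8, at least 9534-fold higher in the clones (limma, adjusted p = 1.82e-20), and Krt18, above background in 2 of the 3 sources and at least 3284-fold higher in the clones with the TTF array at its floor (limma, adjusted p = 1.45e-13), and the adhesion molecule gene Epcam, at least 346-fold higher in the clones (limma, adjusted p = 1.59e-18). Of the 4 catenins, which tie cadherins to the cytoskeleton, only Jup, the gene of plakoglobin, was lower in the sources (-2.63, SE 0.36; limma, adjusted p = 3.98e-07). Ctnna1, Ctnnb1 and Ctnnd1 had differences of -0.29, 0.26 and -0.14 and were not called, so that Cdh1 and these partners moved unequally.

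Of 15 further mesenchymal switch genes 8 were higher in the sources, 3 lower and 4 not called, with a median of 1.54 against -0.14 over all probes, of which 15.4% were higher and 23.7% lower. Zeb2, a zinc-finger repressor of E-cadherin, rose by 3.61 (SE 0.51, limma, adjusted p = 7.52e-07), the homeobox gene Prrx1 by 2.61 (SE 0.69, adjusted p = 0.00184) and the fibronectin gene Fn1 by 2.19 (SE 0.57, adjusted p = 0.00171). Fn1 stood at 7.22 in PαS and 7.08 in OP cells but at 1.90 in TTFs, below the clone mean of 3.21. Those that went the other way were Snai3, at least 5.24-fold higher in the clones (limma, adjusted p = 3.43e-06), the cadherin Cdh11, lower in the sources by -1.60, and the E-protein gene Tcf3, by -1.19. Of 10 TGF-beta signalling genes 4 were higher and none lower, with a median of 1.07, to be read against the same shares of all probes. They were led by the ligands Tgfb1 (2.81, SE 0.41; limma, adjusted p = 1.16e-06) and Tgfb3 (2.12, SE 0.67; adjusted p = 0.00756) and the receptor Tgfbr2 (1.63, SE 0.52; adjusted p = 0.00851), and the pathway's Smad2, Smad3, Smad4 and Smad7 were not called. Beside these genes 10 of 12 fibroblast markers were higher in the sources, and their summed level was 304 to 1064 in the sources against 41.9 to 356 in the clones.

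**Figure D3:**
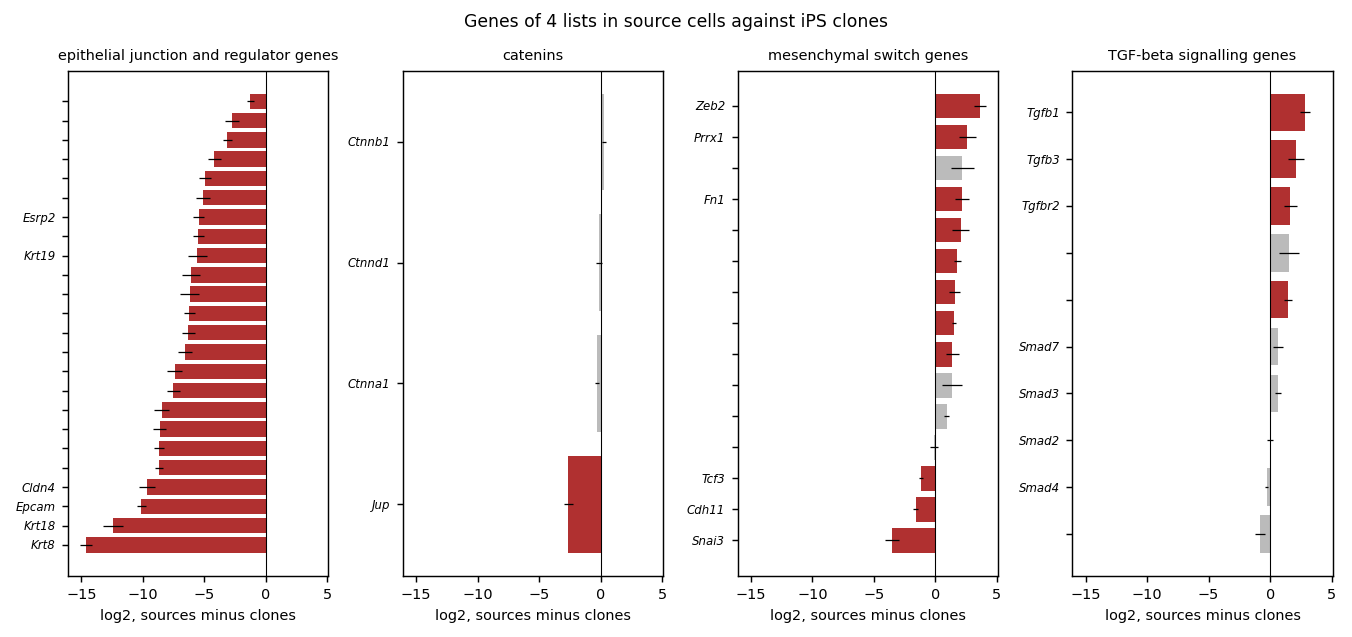
Bars give the log2 difference of sources minus clones from limma for genes of 4 lists, with the SE as a line and names for the genes described in the text (1 epithelial gene is not drawn), and red bars passed an adjusted p under 0.05 and at least 2-fold. All epithelial genes drawn point to the clones, 8 of 15 mesenchymal and 4 of 10 TGF-beta genes point to the sources among called genes, and 3 of 4 catenins stay near 0. Bars of genes at background in sources, such as Krt8 and Epcam, are no exact differences.

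The second comparison asks how closely the clones matched ES cells in these genes. In limma's fit of 30 clones and 2 ES arrays Snai1, Twist2, Twist1 and Cldn6 were higher in the clones and Cdh1 and Cdh2 lower, 6 of 9 genes, where 36.2% of the 27622 probes tested were called, 17.2% higher and 19% lower. Ocln, Snai2 and Vim were not called. For 2 of the 9, Snai1 and Cdh1, no clone overlapped an ES array, which held for 24.4% of the probes tested. Against each ES array alone Snai1 was called both times, which held for no other member. Those fits have 1 array on the ES side and take their spread from the clone groups, on the assumption that the lone array varies alike.

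Snai1 stood at -2.42 in EB-3 and -1.04 in RF8. The clones ran from 0.10 to 4.53 with a median of 1.53, so that every clone of every source exceeded both ES lines. The difference was 3.45 (SE 0.62), 10.96-fold (limma, adjusted p = 4.50e-05), and it was 4.14 against EB-3 and 2.77 against RF8. Cdh1 had 3.38 in EB-3 and 3.82 in RF8, above the highest clone at 2.95. The clones were lower by -1.34 (SE 0.44), 2.54-fold (limma, adjusted p = 0.0128), and against 1 ES array alone the adjusted p was 0.147 for EB-3 and 0.0504 for RF8.

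The remaining calls rested on 1 ES line. Twist2 was not well above background in EB-3 (measured at -7.48) but stood at -1.02 in RF8, within the range of the clones, -1.67 to 1.12. Its call over both lines (limma, adjusted p = 0.000154) took EB-3 at its background reading, and against RF8 alone the difference was 0.56 (adjusted p = 0.467). Twist1 had -3.22 in EB-3, under all clones, and -1.06 in RF8, among them, so that the difference of 1.25 (SE 0.36, limma, adjusted p = 0.00497) fell to 0.17 against RF8 (adjusted p = 0.780). Cdh2 went the other way, at -3.18 in EB-3, among the clones, and 0.69 in RF8, above all of them. Its difference of -1.89 (SE 0.75, limma, adjusted p = 0.0365) was 0.045 against EB-3 and -3.82 against RF8, and without the 4 clones low in Sox2 and Nanog it was -1.66 (adjusted p = 0.0530).

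Cldn6 had -1.18 in EB-3 and -0.00 in RF8, and the clones exceeded the ES mean by 1.48 (SE 0.61, limma, adjusted p = 0.0438), with 0.89 against RF8 alone (adjusted p = 0.437). The call was lost, at 1.46 to 1.47, when 3F-OP-iPS #2 or #5, 4F-TTF-iPS #2 or 3F-TTF-iPS #4 or #5 was left out. Snai2 stood at -1.69 in EB-3 and 0.31 in RF8, and the clones differed by 1.44 (SE 0.62, limma, adjusted p = 0.0526), with 2.44 against EB-3 alone (adjusted p = 0.0191) and 0.44 against RF8 alone (adjusted p = 0.714). It passed when 4F-OP-iPS #1, #2, #3 or #5, 3F-OP-iPS #1 or #3 or 4F-PαS-iPS #2 was left out (1.34 to 1.49), and without the 4 clones low in Sox2 and Nanog (1.43, adjusted p = 0.0235). Vim, at 4.80 in EB-3 and 5.40 in RF8, differed by 0.63 (SE 0.21, limma, adjusted p = 0.0144), which is under 2-fold. Ocln differed by -0.13 with a 95% interval of -1.27 to 1.00.

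Markers of other cells differed between the same arrays. The summed level of the 12 fibroblast markers was 2.48 in EB-3 and 49.99 in RF8, against 41.9 to 356 in the clones, and 8 of 12 were higher in the clones than in ES cells and none lower. All 6 primitive endoderm markers were higher in the clones, among them Sox17 by 6.79 and Gata6 by 5.95, with a summed level of 9.08 to 132 in the clones against 0.556 and 1.56 in ES cells. Their part in the differences of the switch genes was not tested. Of the 15 further mesenchymal switch genes 8 were higher in the clones than in ES cells and none lower. These counts are to be read against the 17.2% of all probes called higher. Some of the calls rested on EB-3. S100a4 stood at -4.63 in EB-3 and 6.88 in RF8 against a clone mean of 6.42. Foxc2 had -7.00 and -2.35 against -2.63. Acta2, at -1.46 in EB-3 and 1.39 in RF8 against 4.72, was below the clone mean in both lines. Of the 25 epithelial genes 5 were higher (Krt8, Krt18, Krt19, Esrp2 and Cldn4) and 1 lower, a share near the 17.2% of all probes called higher. Of the 10 TGF-beta genes 4 were higher and 2 lower. Among those higher, Tgfb2 had -5.88 in EB-3 and -1.60 in RF8, near the clone mean of -1.57. Tgfbr2, at -4.04 in EB-3 and 1.32 in RF8 against 2.91, was below the clone mean in both lines.

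The third set of comparisons asks whether clones of different sources, or clones made with and without c-Myc, differed in the switch genes. None of the 9 genes was called between PαS-iPS and OP-iPS clones (1.6% of 27622 probes called), PαS-iPS and TTF-iPS clones (0.5%) or OP-iPS and TTF-iPS clones (0.0217%), with 10 clones on each side, although 2, 0 and 2 genes had an unadjusted p under 0.05 in limma. Between 3F and 4F clones none was called for PαS (0.0181%) or TTF (5.77%) and 1, Cldn6, was called for OP (4.51%), with 1, 1 and 2 genes at an unadjusted p under 0.05. No gene had an effect of the factors that differed between sources at an adjusted p under 0.05 in limma, with 0, 2 and 1 genes at an unadjusted p under 0.05 for PαS against OP, PαS against TTF and OP against TTF.

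Cldn6 in 3F-OP-iPS clones #1 to #5 had levels of 1.87, 1.78, 0.28, 1.05 and 1.68. In 4F-OP-iPS clones #1 to #5 it had -0.37, -2.06, -0.55, -0.14 and -0.49, all below the lowest 3F clone. The 3F clones were higher by 2.05 (SE 0.53), 4.15-fold (limma, adjusted p = 0.0186). The same difference was 0.78 (SE 0.53) for PαS and 0.06 (SE 0.53) for TTF clones, and the OP effect exceeded the TTF effect by 1.99 (SE 0.75, limma, adjusted p = 0.9999, unadjusted p = 0.0129). Of the OP clones #1, #2 and #3 of 4F were among the 4 low in Sox2 and Nanog. Without the 4 the difference was 1.65 (adjusted p = 0.374), and with the slide as a random block it was 1.94 (adjusted p = 0.135), while without 3F-OP-iPS #5 it was 1.964 (SE 0.57, adjusted p = 0.0503). No slide held both groups. Of 12 fibroblast markers 2 were also called higher in 3F-OP-iPS clones and none lower, with a median difference of 1.53. Their summed level ran from 64.0 to 356 with a median of 245.6 in 3F-OP-iPS and from 41.9 to 135 with a median of 83.1 in 4F-OP-iPS clones, and their part in the Cldn6 difference was not tested. Among PαS clones 3F-PαS-iPS #3, #4 and #5 reached 3.17, 2.49 and 2.88, above the other 27 clones, while #1 and #2 of that group had 0.02 and -0.23. The summed level of 6 primitive endoderm markers was 64.3, 71.9 and 71.0 in #3, #4 and #5 and 21.5 and 42.1 in #1 and #2, and its part in the Cldn6 levels was not tested.

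Snai1 ranged most widely in the OP group. OP-iPS clones ran from 0.10 to 4.53 with a median of 0.78, PαS-iPS clones from 1.34 to 2.87 with a median of 1.87 and TTF-iPS clones from 1.18 to 3.20 with a median of 1.93. PαS-iPS exceeded OP-iPS clones by 0.84 (SE 0.38, limma, adjusted p = 0.196). The top of the OP range was 1 clone, 4F-OP-iPS #2. The summed level of the 6 primitive endoderm markers was 132 in 4F-OP-iPS #2 and 79.4 in 3F-OP-iPS #2, the highest of the OP clones in Snai1, and 3F-PαS-iPS #3, #4 and #5, with the sums given above, were the highest of the PαS clones, at 2.86, 2.64 and 2.87. With all clones kept no marker of the 6 was called, and their median difference was 0.75 for PαS-iPS against OP-iPS and -0.98 for OP-iPS against TTF-iPS clones. It was -0.13 for 3F- against 4F-TTF-iPS clones, whose summed levels overlapped (33.5 to 76.0 against 41.3 to 64.1). The part of these markers in the Snai1 differences was not tested. Without 4F-OP-iPS #2 the difference was 1.22 (SE 0.25, limma, adjusted p = 0.00289), that of OP-iPS from TTF-iPS clones was -1.19 (SE 0.25, adjusted p = 0.0110), and 3F-TTF-iPS was lower than 4F-TTF-iPS by -1.11 (SE 0.35, adjusted p = 0.0333), groups whose clones did not overlap. The effect of the factors on Snai1 then also differed between PαS and TTF clones, by 1.92 (limma, adjusted p = 0.0401), against an adjusted p of 0.168 with all clones. Without all 4 clones low in Sox2 and Nanog, to which 4F-OP-iPS #2 belongs, PαS-iPS still exceeded OP-iPS clones by 1.25 (limma, adjusted p = 0.0275), but OP-iPS against TTF-iPS clones (-1.15, adjusted p = 0.105), 3F- against 4F-TTF-iPS clones (-0.95, adjusted p = 0.111) and the difference in effect between PαS and TTF (1.75, adjusted p = 0.0830) were not called. With the slide as a fixed block and all clones kept, PαS-iPS exceeded OP-iPS clones by 0.62 (SE 0.53, limma, adjusted p = 0.514). For 3F- against 4F-TTF-iPS clones no slide held both groups. The fixed block, which links them only through slides shared with other groups, gave 0.08 (SE 1.61, limma, adjusted p = 1), and the slide as a random block gave -0.88 (SE 0.76, adjusted p = 0.726).

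None of the other genes was called between groups of clones. The pooled SD within groups was 0.94 for Cdh2, 0.87 for Snai1 and for Cldn6, 0.85 for Snai2, 0.80 for Ocln, 0.63 for Cdh1, 0.58 for Twist2, 0.41 for Twist1 and 0.28 for Vim, with a median of 0.42 over the 27622 probes tested. For Cdh2 the 95% interval for 3F- minus 4F-PαS-iPS clones ran from -1.78 to 0.77, which leaves room for a change of over 2-fold. For Ocln 3F-PαS-iPS exceeded 4F-PαS-iPS clones by 1.39 (SE 0.50, limma, adjusted p = 0.174). In 3F-PαS-iPS #3, #4 and #5 it had -1.58, -1.68 and -1.74, in #1 and #2 -3.21 and -2.77, and in 4F-PαS-iPS clones -3.97 to -3.10. The clones #3, #4 and #5 had the higher primitive endoderm sums of the group, given above, whose part was not tested. No slide held both 3F- and 4F-PαS-iPS clones. For Vim 3F-OP-iPS lay below 4F-OP-iPS clones by -0.41 (SE 0.18, limma, adjusted p = 0.160).

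Across the 30 clones the members were set against Cdh1, to ask whether clones with less E-cadherin had more of its repressors. None of 8 relations passed at an adjusted p under 0.05 (Benjamini-Hochberg over the 8). Snai1 had r = -0.465 (permutation test, p = 0.0151, adjusted p = 0.0604) and a Spearman rho of -0.125 (permutation p = 0.509), and Cldn6 had r = 0.470 (permutation test, p = 0.0126, adjusted p = 0.0604) and rho = 0.170 (permutation p = 0.368). Both rested on 4F-OP-iPS #2, which had the lowest Cdh1 at -0.66 against 1.51 to 2.95 in the other 29 clones, the highest Snai1 at 4.53 and the lowest Cldn6. This clone also had the highest summed level of 6 primitive endoderm markers among the clones, 132 against 9.08 to 22.6 in the other 4F-OP-iPS clones, and the part of these markers was not tested. Without it and 3F-TTF-iPS #2, the other clone farthest from the median of Cdh1, r was -0.0792 for Snai1 and 0.102 for Cldn6. Relative to slide means, with all 30 clones and thus 4F-OP-iPS #2 kept, r was -0.673 for Snai1, -0.486 for Vim and 0.542 for Cldn6 (permutation p = 0.000430, 0.00778 and 0.00465). There these relations passed at an adjusted p under 0.05. The permutations moved values between slides, so that these p values do not allow for the slide means taken out. The relations relative to slide means were not computed without 4F-OP-iPS #2 here. Within the 10 clones of each source r for Snai1 was -0.172 in PαS, -0.949 in OP and 0.385 in TTF clones.

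**Figure D4:**
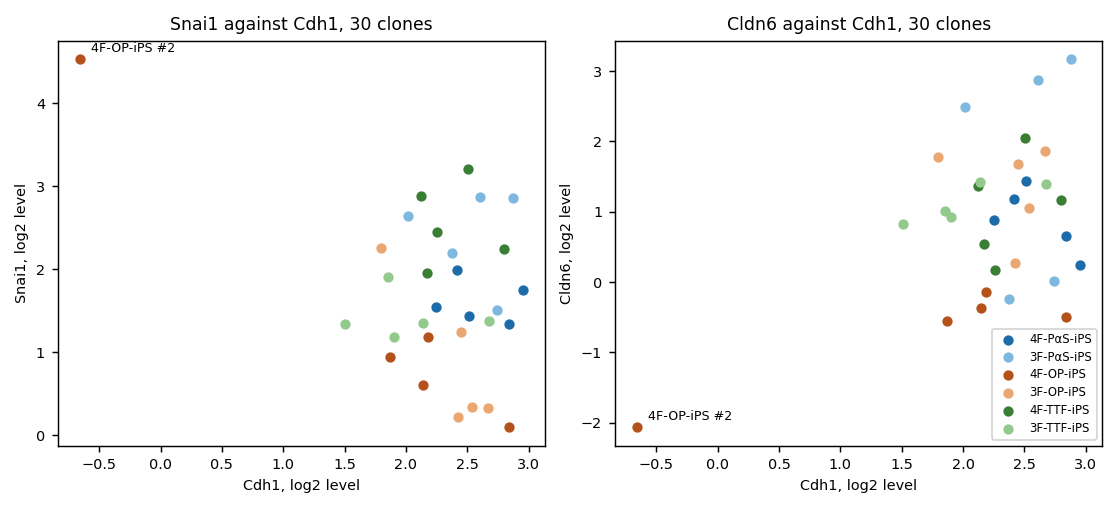
Snai1 (left) and Cldn6 (right) against Cdh1 on 30 clone arrays, all axes in log2 levels, 1 point per clone coloured by group. The clone 4F-OP-iPS #2 lies apart at a Cdh1 level of -0.66, and without it r was -0.0417 for Snai1 and 0.106 for Cldn6.

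The members were also set against the log2 summed level of the 12 fibroblast markers across the clones. This relation was added after the values were seen. Of 9 relations 3 passed at an adjusted p under 0.05: Twist1 with r = 0.595 (permutation test, p = 0.000480, adjusted p = 0.00432, rho = 0.632, permutation p = 0.000310), Cdh2 with r = 0.521 (permutation p = 0.00325, adjusted p = 0.0146, rho = 0.460, permutation p = 0.0117) and Twist2 with r = 0.5005 (permutation p = 0.00560, adjusted p = 0.0168, rho = 0.474, permutation p = 0.00891). Without 3F-OP-iPS #2 and #5, farthest from the median of the markers, r was 0.529, 0.562 and 0.544 in the same order, and relative to slide means 0.636, 0.607 and 0.620. Within PαS clones alone r was 0.193 for Twist1, -0.368 for Cdh2 and -0.318 for Twist2, and in OP and TTF clones it lay between 0.533 and 0.833. Without 4F-OP-iPS #2 only Twist1 passed, while Cdh2 (r = 0.433, adjusted p = 0.0846) and Twist2 (r = 0.410, adjusted p = 0.0846) did not in the permutation test. Without the 4 clones low in Sox2 and Nanog r was 0.542 for Twist1, 0.364 for Cdh2 and 0.338 for Twist2 (permutation test, adjusted p = 0.0172, 0.149 and 0.161). Snai2 had r = 0.325 (permutation test, p = 0.0798, adjusted p = 0.144) and rho = 0.479 (permutation p = 0.00809) over all clones, r = 0.524 relative to slide means (permutation p = 0.00316) and r = 0.596 without the 4 clones (permutation p = 0.00130). The permutation relative to slide means again moved values between slides. Vim had r = 0.0103 (permutation p = 0.957) and Snai1 r = -0.166 (permutation p = 0.378), so that a relation with the fibroblast markers was not detected for them.

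**Figure D5:**
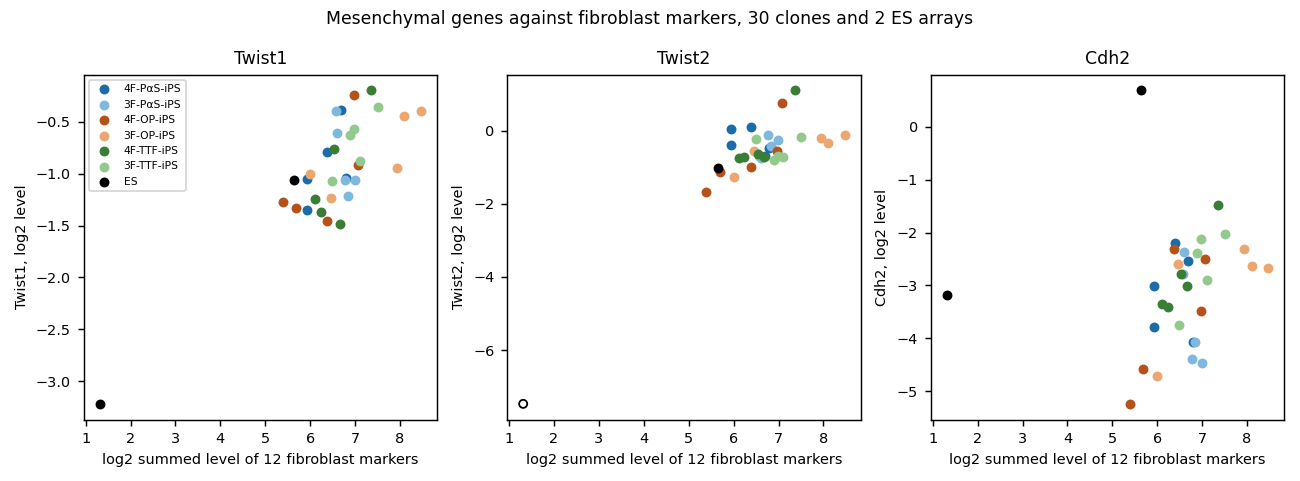
Twist1, Twist2 and Cdh2 (log2 levels) against the log2 summed level of 12 fibroblast markers, for 30 clones and 2 ES arrays, with an open symbol where the gene was not well above background. Across the clones r was 0.595, 0.5005 and 0.521. The EB-3 array lies far to the left, with a summed level of 2.48, and RF8 at 49.99.

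Genes among the 5 most like Cdh1 over all 35 arrays, among 17519 other gene names of the array whose brightest probe was well above background on at least 15 arrays, were Aim1l (r = 0.975), the adaptor gene Grb7 (0.971), Epcam (0.969) and the desmosomal cadherin Dsg2 (0.967). Over the clones alone these r were 0.605 to 0.7496. Those most like Vim were Cdkn2c (0.870), Ids (0.855), Antxr1 (0.852), 2310004I03Rik (0.852) and Eid1 (0.850), with 0.451 to 0.519 over the clones. These values describe arrays that share sessions and the step from sources to clones, and carry no test.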

How the data were processed

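Agilent 1-colour (Cy3) arrays of 30 iPS clones, 2 ES lines and 3 source cell types were read from the scanner files. The deposited intensities had been background-subtracted by the authors' Feature Extraction software and arrays had not been normalized to each other. A table of the authors' log2 values, made in GeneSpring, served as an alternative. Its column medians ran from -0.62 to 0.25, its genes are centred on their medians, and it correlated with the values used here at 0.99997 or more on every array. Control spots and outlier-flagged spots (54 to 152 per array) were left out and spots of a probe averaged. No member's probe was saturated. From the log2 intensity each array's 75th percentile was subtracted. Precision is limited by the number of arrays, in particular 2 ES arrays and 1 array per source.

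limma 3.58.1 in R 4.3.3 was fitted with 7 groups (clones and ES cells, 27622 probes) and with 8 (the 3 sources added as 1 group, 28300 probes). A probe entered the test if all arrays of 1 group or more had it well above background, and it was called at an adjusted p under 0.05 (Benjamini-Hochberg) and at least 2-fold. The fit was tested on simulated data. Correlations used 100000 two-sided permutations (Python 3.11.15, numpy 2.4.6, pandas 2.3.3, scipy 1.17.1, figures with matplotlib 3.10.9). Members were named by rule with their brightest probe, and from each list up to 3 genes with the largest change in each direction. Probes under older symbols were kept only where their accession belonged to the gene in RefSeq, and Fgf4 had no probe by name. Members and lists were chosen with earlier results of these data known. Alternatives were normexp background correction, quantile normalization, the authors' table, no filter, no fold minimum, the second brightest probe, the slide or clone number as a block, and each array left out. Values of 2 genes that the rule or a list holds are not reported here.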

Additional observations from a re-analysis of the deposited data

Results flagged for a closer look

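Among 54 sets of 5 clones, 1 for each gene and group, 9 held a clone whose gap to the nearest other clone exceeded Dixon's limit for the range of its group. Chance flags about 5% of such sets where values are normally distributed, and the flags of 1 clone are not independent. The share flagged over all probes was not counted, so that the 9 sets are not read as a trait of these genes. Clone 4F-OP-iPS #2 was flagged for 3 genes: Cdh1 at -0.66 (others 1.87 to 2.84), Snai1 at 4.53 (others 0.10 to 1.18) and Cldn6 at -2.06 (others -0.55 to -0.14). It was also among the 4 clones low in Sox2 and Nanog, and its summed level of primitive endoderm markers was 132 against 9.08 to 22.6 in the other 4F-OP-iPS clones. The part of these markers was not tested. Clone 4F-TTF-iPS #5 was flagged for Twist2 at 1.12 (others -0.75 to -0.64) and Vim at 6.37 (others 5.78 to 5.89). The remaining flags were Cdh1 in 3F-OP-iPS #2 at 1.79 (others 2.43 to 2.67), Cdh2 in 3F-OP-iPS #3 at -4.72 (others -2.67 to -2.31), Snai1 in 3F-TTF-iPS #1 at 1.91 (others 1.18 to 1.37) and Snai2 in 3F-PαS-iPS #1 at 1.08 (others 0.63 to 0.75). No effect of the factors was flagged as differing between sources.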

How the results depend on the processing

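Between sources and clones 6 genes were called whichever array was left out and in each other fit of the 3 sources, except that the second probes, for the genes that have one, left 4, since those of Vim and Ocln were near background. Twist1 was lost with TTFs alone against their clones, at 0.25, and Cdh2 was gained with PαS cells alone against theirs, at 3.13 (limma, adjusted p = 0.0227), both in a fit with 1 array on the source side. Between clones and ES cells 3 to 7 genes were called as arrays were left out, 3 without EB-3 and 2 against RF8 in the fit that kept both. Cdh2 turned to 0.045 without RF8 and against EB-3 alone (-3.82 without EB-3). The clone number as a replicate block gave 4 genes there, losing Cdh2 (-1.91) and Cldn6 (1.28), and changed no other call. Of 75 pairs of clones with equal numbers 16 had deviations correlated over 0.1 (median -0.000669), so that the numbers were not taken as a pairing. The slide as a random block (4 genes) also lost Cdh2 (-1.87) and Cldn6 (1.48), with differences near those reported and wider errors. Normexp lost Twist1 (0.94, under 2-fold) and Cldn6 (1.40, adjusted p = 0.0530 in limma). The source arrays carry no clone number and were not paired with single clones. Each was set against the clones of its own source in the fits with 1 array on the source side. Cldn6 in 3F- against 4F-OP-iPS clones fell to 0 genes called with the slide as a random block and without the 4 clones low in Sox2 and Nanog, and leaving out arrays gave 0 to 1. Without 4F-OP-iPS #2 1 gene, Snai1, was called for PαS- against OP-iPS, OP- against TTF-iPS and 3F- against 4F-TTF-iPS clones (0 to 1 over all arrays left out), and without the 4 clones 1 gene for PαS- against OP-iPS. The relations with Cdh1 that passed numbered 3 relative to slide means, with 4F-OP-iPS #2 kept and values permuted between slides. They numbered 0 whichever clone was left out. Those with the fibroblast markers, an analysis added after the data were seen, numbered 1 to 4 (1 without 4F-OP-iPS #2). The causes were not tested.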

Other observations

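The brightest probes carried the results, and the other 4 probes of the members were near background. Both further Cdh2 probes and the further Vim probe, which carry other accessions, were above background on 1 of 35 arrays each, and the further Ocln probe on 2. The order of the 9 genes by spread within groups of clones put Cdh2 at the 88.3 percentile of the probes tested, Snai1 at 85.9, Cldn6 at 85.8, Snai2 at 85.0, Ocln at 82.9, Cdh1 at 72.5 and Twist2 at 67.5, with Twist1 at 48.2 and Vim at 24.1.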
